A study of Homo sapiens with 5 samples.

Results

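Additivity of 2 inhibitors was described in MDA-MB-231 cells, an established triple-negative breast cancer line, from 4 of the 5 libraries of the study. The cells had been mock treated or given CGI-1746, LU-102 or both inhibitors for 4 h, and the remaining library, from cells given bortezomib, is used here for side values only. CGI-1746 is known as a kinase inhibitor, and the title of the series speaks of allosteric inhibition of the proteasome by it. LU-102 is known as an inhibitor of the trypsin-like site of the proteasome, and bortezomib is a proteasome inhibitor used as the control. The sources used here give neither doses nor the vehicle. Since every condition is 1 library, replicate error is unknown, no difference was tested, and all error terms cover counting only. Of the 4202 genes in the table, 1446 reached a level of 5 in any of the 4 libraries and are described. SLBP was just inside this limit at a highest level of 5.005, and NHP2 just outside it at 4.99987. Of the mesenchymal markers of the line, VIM had a level of 92.1 in mock, LGALS1 of 48.4, AXL of 17.7 and S100A4 of 17.3. Lower in mock were CAV1 at 9.64, MSN at 5.67, CD44 at 4.91 and SNAI2 at 4.85. The luminal keratins KRT18, KRT19 and KRT8 stood at 35.5, 12.1 and 2.02.

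When the proteasome is inhibited, unfolded and undegraded proteins gather and the factor HSF1 drives heat shock genes, whose products refold proteins or hold them for degradation. Metal-binding and antioxidant genes, proteasome genes and genes of amino acid stress are known to respond to such treatment too. In a layout of 2 agents, the question is whether the combination gives what both single differences give together. For each gene a departure was computed on log2(level + 1): combination plus mock, less CGI-1746 and less LU-102. A departure of 0 means that the ratios of the single agents to mock multiply. It is also the LU-102 difference in the presence of CGI-1746 less the LU-102 difference in its absence.

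The genes with the largest departures among the heat shock chaperones are shown first by their promoters, because these genes departed to the same side and are known targets of HSF1. Each sequence is the 250 bases before the start of the gene in RefSeq (GRCh38.p14), written 5′ to 3′ on the strand of the gene. Capitals mark the heat shock element searched on both strands as GAANNTTC or TTCNNGAA, which are their own reverse complements and can overlap each other. The windows are chr6:31827488-31827737 for HSPA1B, chr6:31815293-31815542 for HSPA1A and chr1:161524290-161524539 for HSPA6, all on the plus strand. DNAJB1 has 3 listed starts, and the window printed, chr19:14518398-14518647 on the minus strand, is the one that held the element.
HSPA1B: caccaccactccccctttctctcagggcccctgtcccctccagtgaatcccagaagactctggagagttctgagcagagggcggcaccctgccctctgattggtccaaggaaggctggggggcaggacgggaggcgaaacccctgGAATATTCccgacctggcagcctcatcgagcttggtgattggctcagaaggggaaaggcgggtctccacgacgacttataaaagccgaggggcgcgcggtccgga
HSPA1A: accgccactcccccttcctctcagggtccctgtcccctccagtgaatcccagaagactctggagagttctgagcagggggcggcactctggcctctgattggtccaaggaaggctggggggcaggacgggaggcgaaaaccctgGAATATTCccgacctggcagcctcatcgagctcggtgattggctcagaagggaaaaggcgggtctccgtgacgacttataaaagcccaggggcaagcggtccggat
HSPA6: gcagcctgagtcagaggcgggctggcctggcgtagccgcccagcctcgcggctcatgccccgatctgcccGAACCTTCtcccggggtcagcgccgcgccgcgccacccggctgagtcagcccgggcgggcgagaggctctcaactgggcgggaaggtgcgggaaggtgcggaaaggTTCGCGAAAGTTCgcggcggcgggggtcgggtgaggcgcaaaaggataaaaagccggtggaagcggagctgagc
DNAJB1: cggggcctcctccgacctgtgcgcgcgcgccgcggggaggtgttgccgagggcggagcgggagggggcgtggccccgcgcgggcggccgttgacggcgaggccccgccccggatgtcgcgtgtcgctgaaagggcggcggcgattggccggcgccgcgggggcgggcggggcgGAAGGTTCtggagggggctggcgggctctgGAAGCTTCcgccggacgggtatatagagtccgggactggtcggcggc
HSPA1B and HSPA1A each held 1 match, which began 105 and 106 bases before the start, and the 2 windows were 94.4% identical along their best alignment without gaps. HSPA6 held 3 matches, of which 2 overlapped, and the DNAJB1 window held 2. Of the 8 HSP70 windows 4 held a match, against 7.74% of the 1538 windows of genes passing the level limit and 11.6% of all 35116 windows. Of the 64 windows of genes 0.25 or more above the all-gene median departure, 20.3% held one. Of the 93 windows of genes 0.25 or more below, 8.60% did. The HSP70 windows and the set above both include genes printed here, which were chosen by their departures. Neither share is therefore separate support. A match is a description of letters and not of binding.

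Departures were small for most genes. The all-gene median was 0.13, and 1145 of the 1446 genes lay above 0. Median-of-ratios scaling, which centres the libraries by construction, puts it at -0.0022, so it depends on how libraries are scaled and every departure below is given relative to it. The central 90% of genes lay between -0.29 and 0.25, with a robust SD across genes of 0.154. The rough counting error of a single departure had a median of 0.124 for protein-coding genes, which is close to that spread across genes. At 0.5 or more above the median stood 10 genes (0.692% of those compared), 3 of them short RNAs, and at 0.5 or more below it 17 genes (1.18%), 8 of them short RNAs. At 0.25 or more the counts were 76 above (5.26%) and 103 below (7.12%). By comparison, on the log2(level + 1) scale CGI-1746 was 1 or more above mock for 4 genes and below it for 2 (0.277% and 0.138%). This scale understates the change of low genes. Under LU-102 these counts were 2 and 0 (0.138% and 0%), and under the combination 6 and 1 (0.415% and 0.0692%). All 3 comparisons share the mock library.

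**Figure D1:**
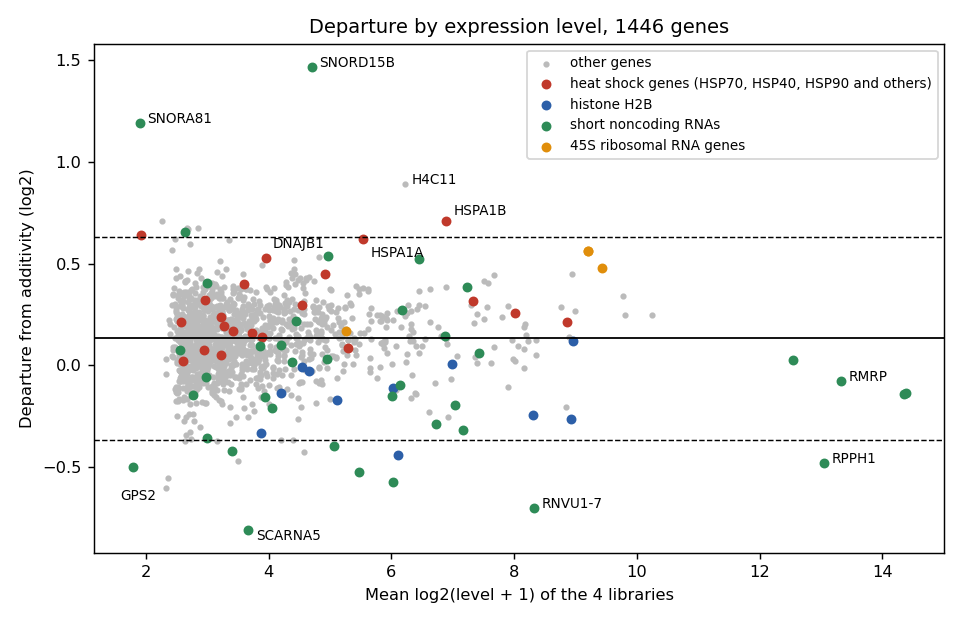
Departure from additivity (log2, vertical axis) against the mean log2(level + 1) of the 4 libraries for 1446 genes, 1 point a gene, with the all-gene median of 0.13 as a solid line and 0.5 above and below it dashed. Heat shock genes lie mainly above the line and H2B genes below it, and short noncoding RNAs reach both ends, from SNORD15B to SCARNA5.

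Among families of 5 or more genes the HSP70 chaperones had the highest median departure, 0.13 above the all-gene median over 8 genes. This rank did not hold after adjustment for level, length and GC content. HSPA1B, an inducible HSP70 gene (chromosome 6, 31827738 to 31830254), had levels of 62.2 in mock, 136 under CGI-1746, 79.7 under LU-102 and 284 under both, and levels below keep this order. Multiplying the single ratios, with the all-gene median added, gives 190, and adding the single differences gives 153, so the combination stood above both. LU-102 went with a ratio of 1.28 without CGI-1746 and of 2.09 with it. The departure was 0.57 above the median, with a counting error of 0.043.

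HSPA1A, whose coding sequence is nearly identical to that of HSPA1B so that reads could be split between them, had 24.0, 52.7, 31.6 and 107 in the same order. Its departure was 0.49 above the median, and the multiplied expectation was 76.0. HSPA6, a stress-induced HSP70 (chromosome 1, 161524540 to 161526894), had 1.43, 2.92, 1.91 and 6.30 and stood 0.51 above. It passed the level limit through the combination alone, so a difference in that library was needed for it to be counted. In these 3 genes the combination was highest, followed by CGI-1746, then LU-102, then mock.

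The other HSP70 genes were closer to the all-gene median. HSPA5, the chaperone of the endoplasmic reticulum, had levels of 167, 168, 137 and 172 and stood 0.18 above, with LU-102 the low library. HSPA8, the constitutive cytosolic HSP70, had 429, 480, 416 and 539 and stood 0.08 above, and HSPA13 and HSPA9 stood 0.08 and 0.03 above. HSPH1, an exchange factor of HSP70, was the 1 member below, at -0.11. In all, 7 of the 8 genes lay above the median, where 50% of all genes lie by construction. At 0.25 or more above were 3, where 5.26% of all genes lie. These 3 were HSPA1A and HSPA1B, which could share reads, and HSPA6, which was counted only through its combination level. Without HSPA1A, HSPA1B and HSPA6 the median of the other 5 genes was 0.08.

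Partner chaperones stood on the same side. DNAJB1, the HSP40 that hands clients to HSP70 (chromosome 19, 14514769 to 14560391), had levels of 10.6, 15.1, 11.4 and 23.7 and stood 0.39 above, with 17.8 as the multiplied expectation. DNAJA1, another HSP40, had 10.9, 11.1, 9.51 and 13.1 and stood 0.26 above, while DNAJC9 was at 0.01. LU-102 alone was the lowest library for DNAJA1, and the combination the highest.

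Of the 10 genes of HSP90, HSP60 and related chaperones 7 lay above the median. At 0.25 or more above stood 1 of them, where 5.26% of all genes lie. HSP90AA1, the inducible HSP90, had levels of 26.7, 31.5, 23.3 and 37.9 and stood 0.32 above. PTGES3, an HSP90 co-chaperone, stood 0.19 above, HSPD1, the mitochondrial HSP60, 0.16 and HSP90AB1, the constitutive HSP90, 0.12. The collagen chaperone SERPINH1 was at -0.09 and the HSP90 co-chaperone CDC37 at -0.06.

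The TRiC chaperonin, a cytosolic folding chamber for actin and tubulin, had a median of 0.11 over 8 genes, with 6 above and none at 0.25 or more. CCT8 had levels of 11.3, 10.02, 9.23 and 10.9 and stood 0.25 above to 2 decimals, and CCT4 stood 0.19 above. All 8 genes had their lowest value with LU-102 once each library was set to the same median, and for 1 of them the combination was highest. The low level under LU-102 was not seen in the combination, an order unlike that of HSPA1B. The chaperones of the endoplasmic reticulum were near the all-gene median, at 0.01 over 13 genes.

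**Figure D2:**
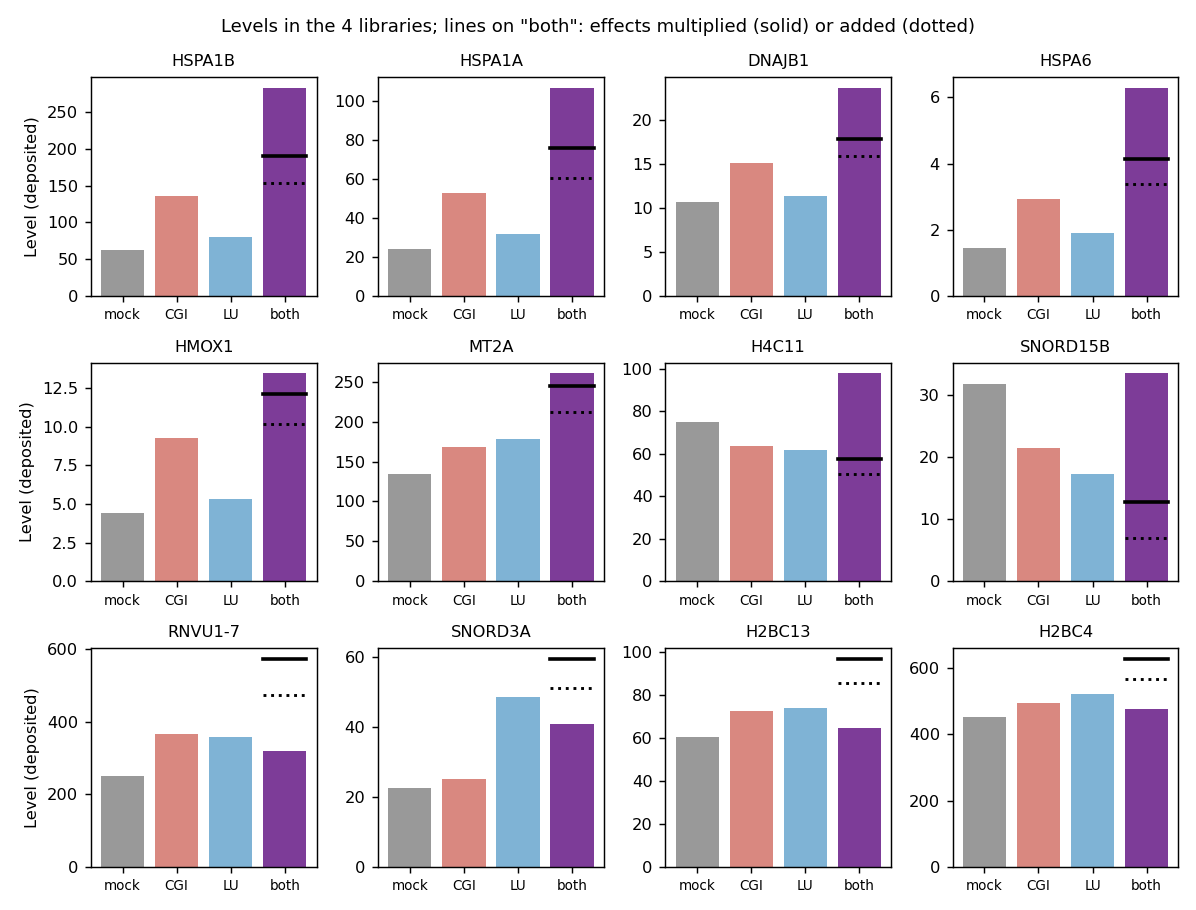
Deposited level (linear axis from 0) of 12 genes in the mock, CGI-1746, LU-102 and combination libraries, 1 bar a library, with the level expected if the single ratios multiply, all-gene median added (solid line) or the single differences add (dotted line). HSPA1B, HSPA1A, HSPA6 and DNAJB1 stand above both lines with the combination, and RNVU1-7, SNORD3A, H2BC13 and H2BC4 below both.

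Metal-binding genes were high with the combination but close to the multiplied expectation. MT2A, a metallothionein, had levels of 135, 168, 179 and 261 against an expectation of 244, and stood 0.09 above the median. MT1X had 41.1, 59.8, 48.2 and 81.6 and stood 0.08 above, and MT1E stood 0.15 above and MT1F, which passed the level limit through LU-102 alone, at -0.18. Added on the level scale the single differences gave 212 for MT2A and 66.9 for MT1X. In these 4 genes mock was the lowest library, and no departure reached 0.25. Metallothioneins are near-identical copies, so reads may be shared among them.

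Genes of oxidant defence had a median of 0.07 over 13 genes, of which 10 lay above the median. FTL, the ferritin light chain that stores iron, had levels of 157, 173, 164 and 240 and stood 0.28 above. The combination was 1.53 times mock, while the single agents were 1.10 and 1.04 times mock. FTH1, the ferritin heavy chain, had 34.3, 37.7, 33.1 and 46.6 and stood 0.21 above. Both subunits of ferritin therefore had a combination level above either single agent.

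HMOX1, the heme oxygenase (chromosome 22 in RefSeq, from 35381096 up to 35394207), had 4.44, 9.30, 5.33 and 13.5 and stood 0.14 above, within its counting error of 0.17. Its multiplied expectation was 12.1. GCLM, a subunit of the enzyme that starts glutathione synthesis, stood 0.19 above and PRDX1, a peroxiredoxin, 0.17. TKT, a transketolase, was at -0.24 and MAFG, a partner of NRF2, at -0.11.

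The genes of ATF4 and CHOP were on the other side, with a median of -0.07 over 9 genes and 2 above, which was -0.02 after adjusting for level, length and GC content. CEBPB, a stress-induced transcription factor, had levels of 5.01, 7.34, 6.22 and 7.81 and stood at -0.32. DDIT4, an inhibitor of mTORC1, had 7.28, 14.1, 8.42 and 14.9 and stood at -0.25, so its level with both agents was near that with CGI-1746 alone. ATF4 itself had 77.5, 83.0, 68.0 and 87.9 and stood 0.14 above, as did CEBPG. CEBPG passed the level limit through mock alone, which enters the departure with a plus sign.

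Proteasome genes did not depart together. The 12 core and regulator subunits that passed the limit, of 29 listed, had a median of -0.07, with 4 above the all-gene median. At -0.25 or lower were 2 of the 12, where 7.12% of all genes lie. PSMA7, a subunit of the outer core ring, had levels of 13.1, 15.9, 15.2 and 15.9 and stood at -0.33, and PSMD8, of the regulator, at -0.32. PSMB5, the catalytic subunit that bortezomib binds, had 6.57, 6.40, 6.91 and 6.66 and stood at -0.15. Without a level limit all 29 subunits had a median of 0.06, on the other side.

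The 5 proteasome activators and assembly factors had a median of 0.10. PSMG3, an assembly chaperone, had levels of 4.49, 3.66, 4.34 and 5.97 and stood 0.49 above, and PSME3 and PSME1, activator subunits, 0.14 and 0.10. PSMG3 passed the level limit through the combination. ADRM1, a ubiquitin receptor of the proteasome, was at -0.14. The 4 ubiquitin-coding genes lay between -0.06 and 0.05, with UBB at levels of 290, 287, 266 and 300. Their departures were thus near that of all genes.

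Histone H2B genes had the lowest median of the protein-coding families. Replication-dependent histone genes lie in clusters, and H2A and H2B genes often share a promoter between them. The H2B windows printed are chr6:27807930-27808179 for H2BC13, the lowest member, and chr6:26123927-26124176 for H2BC4, the most abundant of the low ones, both on the minus strand in GRCh38.p14. They are shown because all H2B genes departed to the same side, and capitals mark the octamer ATTTGCAT, searched on both strands.
H2BC13: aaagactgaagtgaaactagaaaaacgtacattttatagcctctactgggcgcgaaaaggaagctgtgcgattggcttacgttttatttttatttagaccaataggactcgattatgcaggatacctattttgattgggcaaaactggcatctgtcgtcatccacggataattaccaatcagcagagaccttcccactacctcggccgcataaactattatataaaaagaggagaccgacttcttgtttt
H2BC4: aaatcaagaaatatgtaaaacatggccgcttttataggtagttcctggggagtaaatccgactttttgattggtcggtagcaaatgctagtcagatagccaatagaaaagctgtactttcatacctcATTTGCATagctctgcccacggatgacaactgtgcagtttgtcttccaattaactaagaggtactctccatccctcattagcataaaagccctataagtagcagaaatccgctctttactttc
H2BC4 held the octamer, which began 123 bases before its start. The octamer was not in the window of H2BC13, nor in the 2 windows of H2BC5, which are not printed. Of the 13 H2B windows 69.2% held it, of the 11 H2A windows 63.6% and of the 9 H3 and H4 windows 0%, against 2.02% of the windows of genes passing the limit and 1.63% of all windows.

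All 11 H2B genes that passed the limit lay below the all-gene median, at a median of -0.27, and 6 lay 0.25 or more below, where 7.12% of all genes lie. H2BC13 (chromosome 6, 27807479 to 27807929) had levels of 60.7, 72.7, 73.8 and 64.7 and stood at -0.58 with a counting error of 0.12. H2BC4 had 452, 496, 523 and 476 and stood at -0.40. Both genes were higher with each single agent than in mock, and their combination level lay between mock and the single agents. H2BC11 had 285, 306, 358 and 325 and stood at -0.38, and H2BC5 was at -0.47.

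H2BC17, at 514, 490, 486 and 502, was near the median at -0.02. In 8 of the 11 genes LU-102 was the highest library and in 8 mock was the lowest, after setting the library medians equal. In the bortezomib library, which no departure uses, H2BC13 had a level of 0.36, H2BC4 of 3.81 and H2BC17 of 2.65, where the all-gene median against mock was -1.43. Adjusted for level, length and GC content the median over 10 H2B genes was -0.30.

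The other histones were split. The 12 H2A genes had a median of -0.10, with 11 below the all-gene median. At 0.25 or more below, where 7.12% of all genes lie, were 2 of them, H2AC20 at -0.39 and H2AC21 at -0.34. H2AC18 and H2AC19 had identical levels in every library and are 1 measurement within these counts. For all 12 LU-102 was the highest library once library medians were set equal. The 13 H3 and H4 genes ranged from -0.37 to 0.76. At 0.25 or more were 2 above and 3 below, against 5.26% and 7.12% of all genes. The highest was H4C11 (chromosome 6, 27824092 to 27824480), with levels of 74.9, 63.5, 61.7 and 97.9 and a departure 0.76 above the median with a counting error of 0.13.

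H4C11 was lower than mock with either agent alone and 1.31 times mock with both. H4C2 stood 0.32 above, while H4C12 was at -0.37 and H3C1 at -0.30. The 4 linker histones lay above, between 0.08 and 0.31, led by H1-2 at levels of 218, 184, 192 and 222. Variant histones made outside S phase had a median of 0.07 over 6 genes, with H2AZ1 at 0.24.

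Short noncoding RNAs held many of the largest departures in both directions: of 38 that passed the limit 7 lay 0.25 or more above (5.26% over all genes) and 18 below (7.12%). These RNAs guide the modification of other RNAs, splice, process ribosomal RNA and tRNA or carry proteins to membranes. RNVU1-7, a variant of the U1 spliceosomal RNA (chr1:148038753-148038916, minus strand), is printed as GENCODE 29 (GRCh38) gives it, since it was the lowest of the spliceosomal RNAs. Capitals mark the letters ACTTACCT, which pair with the start of introns.
RNVU1-7: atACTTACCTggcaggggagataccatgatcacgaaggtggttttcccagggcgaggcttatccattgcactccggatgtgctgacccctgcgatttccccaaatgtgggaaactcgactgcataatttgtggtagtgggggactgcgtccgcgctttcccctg

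SNORD15B, a box C/D guide, had levels of 31.7, 21.4, 17.2 and 33.5, from 78, 53, 43 and 83 reads. It stood 1.33 above the all-gene median with a counting error of 0.36. The single agents were both below mock, and mock and the combination were nearly equal. It was the only box C/D RNA of 8 above the median, and the family median was -0.28.

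The U3 RNAs, which process ribosomal RNA, lay below. SNORD3A had levels of 22.5, 25.1, 48.5 and 40.8, from 82.1, 92.7, 180 and 150 reads, and stood at -0.53 with a counting error of 0.26. LU-102 went with a ratio of 2.16 to mock when alone and of 1.62 when CGI-1746 was present. SNORD3D had 12.2, 13.1, 20.3 and 18.6 and stood at -0.34, and SNORD133 was at -0.66. In 5 of the 8 box C/D RNAs LU-102 was the highest library once library medians were set equal.

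RNVU1-7 had levels of 250, 367, 357 and 321, from 691, 1022, 1001 and 894 reads, and stood at -0.84 with a counting error of 0.10. Each single agent was higher than mock by nearly the same ratio, 1.47 and 1.43, and the combination was 1.28 times mock. The other 3 spliceosomal RNAs, RNVU1-6, RNU4-1 and RNU4-2, were at -0.49, -0.42 and -0.33. U1 variants are close copies, so reads may be shared among them.

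The abundant RNAs of RNase P and RNase MRP were also below. RPPH1, part of the enzyme that trims tRNA (chromosome 14, 20343071 to 20343411), had levels of 7110, 7265, 11783 and 8618 and stood at -0.62. The log2 difference that went with LU-102 was 0.73 without CGI-1746 and 0.25 with it. RMRP, which acts in ribosomal RNA processing, had 8339, 9343, 11658 and 12369 and stood at -0.21.

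The 7SL RNAs of the signal recognition particle were at -0.27 for RN7SL1, -0.27 for RN7SL2 and -0.45 for RN7SL3, and RN7SK was at -0.11. RN7SL1 had levels of 18035, 17813, 26765 and 24051. All 4 genes were highest with LU-102 and lowest in mock once library medians were set equal. Counting error of RN7SL1 and RN7SL2 was below 0.01, but copies of 7SL are near-identical.

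Box H/ACA and Cajal body RNAs went both ways. SNORA81 stood 1.06 above, with levels of 5.34, 1.32, 2.96 and 2.31, on 15.9, 3.98, 8.95 and 6.96 reads, and its counting error was 0.73. It passed the level limit through mock alone, which enters the departure with a plus sign. SNORA67 stood 0.52 above and SNORA71D at -0.64, with counting errors of 0.70 and 0.80, so neither value was larger than its own error. SNORA71D had 1, 6, 7 and 14 reads and passed the limit through the combination alone.

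SCARNA5 had levels of 10.9, 12.5, 14.95 and 9.31, from 51, 59, 71 and 44 reads, and stood at -0.94 with a counting error of 0.36. SCARNA10 had 54.0, 61.5, 81.1 and 61.7 and stood at -0.71, while SCARNA7 and SCARNA13 stood 0.40 and 0.39 above. For SCARNA5 and SCARNA10 the highest library was LU-102, and for SCARNA7 and SCARNA13 the lowest was LU-102.

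The 45S ribosomal RNA genes lay above. RNA45SN1 and RNA45SN5 had identical levels of 577, 575, 501 and 737 and stood 0.43 above, so they are 1 measurement. RNA45SN3 had 643, 676, 597 and 876 and stood 0.35 above, and RNA45SN2 0.04. LU-102 was the lowest library for all 4 genes. These copies share sequence and hold mature ribosomal RNA as well as the precursor.

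Long nuclear RNAs had a median of -0.05 over 14 genes, with 5 at -0.25 or lower, where 7.12% of all genes lie. MALAT1 had levels of 432, 522, 437 and 458 and stood at -0.34, and NEAT1, the RNA of paraspeckles, had 14.8, 22.9, 17.8 and 24.7 and stood at -0.28. For MALAT1 the CGI-1746 library was alone above the rest. NORAD, an RNA that binds Pumilio proteins, was at 0.23.

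Signalling genes departed little on the log2 scale. The 9 genes of ERK feedback had a median of -0.06, with 4 above, and none at 0.25 or more either way. DUSP6, an ERK phosphatase, had levels of 12.4, 9.31, 9.61 and 7.59 against a multiplied expectation of 7.97 and stood at -0.06. Each agent alone was below mock and the combination was lowest, close to the product of both ratios. SPRY4, an inhibitor of the pathway, was at -0.22 and PHLDA1 at -0.21. The family median was 0.05 when single differences were added on the level scale.

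NF-kB linked genes had a median of -0.08 over 9 genes, with LIF, a cytokine, at -0.19 and IL24 at -0.16. CXCL8, a neutrophil chemokine, had 15.4, 11.01, 11.8 and 9.70 and stood 0.06 above. Interferon-induced genes had -0.10 over 5 genes, all of them below, with IFIT2 at levels of 3.67, 6.68, 3.42 and 6.45. IFIT2 was near the CGI-1746 level with both agents. CYP1B1, a cytochrome P450 driven by the AHR receptor, had 10.7, 4.76, 8.64 and 4.39 against a multiplied expectation of 4.21 and stood 0.05 above. Added on the level scale, the single differences gave 2.70 for CYP1B1. On that scale CYP1B1 stood 0.41 above and CXCL8 0.22 above. YAP and TEAD targets were at -0.02 over 8 genes and immediate early genes at -0.01 over 11, where IER5 stood 0.34 above.

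Large housekeeping families lay on the all-gene median. The 72 cytosolic ribosomal protein genes had a median of 0.01, with 37 above the all-gene median. At 0.25 or more were 6 above and 4 below, against 5.26% and 7.12% of all genes. RPS26 stood 0.48 above at levels of 10.8, 8.53, 7.94 and 10.1. Translation factors had 0.01 over 29 genes, mitochondrial ribosomal proteins -0.02 over 20, splicing factors and hnRNPs 0.04 over 33 and glycolytic enzymes -0.04 over 11. Genes of G2 and mitosis had 0.01 over 18, with ARL6IP1 at 0.40 and CKS1B at 0.31.

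Nuclear-coded genes of the respiratory chain had a median of 0.09 over 21 genes, with 15 above. NDUFC2, of complex I, had levels of 6.53, 5.07, 4.86 and 6.13 and stood 0.46 above, and CYC1, of complex III, had 21.1, 18.8, 21.5 and 26.2 and stood 0.30 above. COX5B, of complex IV, was at -0.29 and ATP5MC1, of ATP synthase, at -0.26. Of the 33 families with at least 5 genes, 7 had medians 0.05 or more above the all-gene median, 9 had medians 0.05 or more below and 17 lay between.

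**Figure D3:**
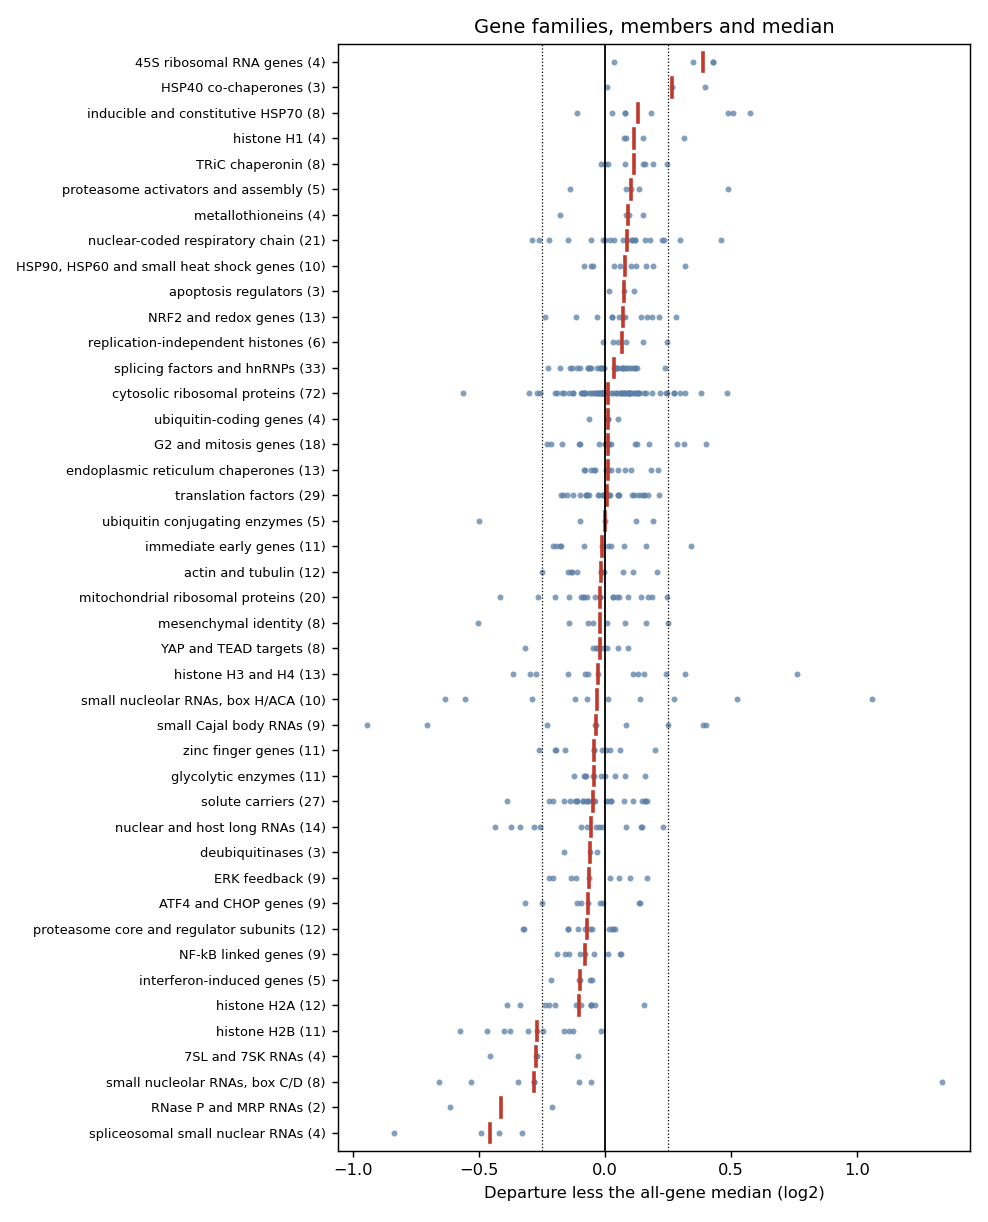
Departure less the all-gene median (log2) of each member (points) and the family median (red bar) for families with 2 or more genes that passed the level limit, whose number stands in brackets. The dotted lines are at 0.25 above and below, and the H2B genes lie all on the left of 0 while 7 of 8 HSP70 genes lie on the right.

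Outside the families the coding genes with the largest departures had low levels. YDJC, a deacetylase-like gene, had 3.90, 2.92, 3.63 and 5.05 and stood 0.57 above with a counting error of 0.24. It passed the level limit through the combination alone, so a high value there was needed. RANGRF, a Ran-binding factor, stood 0.54 above at 6.66, 5.23, 5.66 and 7.64. TCEAL9 and SPANXB1 also stood 0.54 above, and their counting errors were 0.18 and 0.37. In TCEAL9, at 6.37, 5.11, 4.22 and 5.89, both single agents were below mock and the combination was near mock.

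GPS2, a corepressor subunit, had 3.32, 3.97, 5.29 and 3.75 and stood at -0.74 with a counting error of 0.24. FLG, filaggrin, had 4.09, 4.09, 5.27 and 3.27 and stood at -0.69, with 0.08. Both passed the limit through the LU-102 library, so a high value there was needed. EMC6, of the membrane insertion complex, was at -0.60, SNAI2, a mesenchymal transcription factor, at -0.51 and GMPPB, a sugar-nucleotide enzyme, at -0.48. SNAI2 passed the limit through the CGI-1746 and LU-102 libraries alone, which both enter the departure with a minus sign.

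The same departure can arise from different libraries, since mock and the combination enter it with the same sign. Of the 76 genes 0.25 or more above the median, the combination was the highest library in 39 and mock in 35, after setting library medians equal, against 337 and 463 of all 1446 genes. Both single agents were below mock in 60 of the 76, against 686 of all 1446. Of the 103 genes at -0.25 or lower, LU-102 was the highest library in 63 and mock the lowest in 69, against 380 and 449 of all genes. Both single agents were above mock in 85 of the 103, against 380 of all genes. The departure takes mock with a plus sign and the single agents with a minus sign, so choosing genes by it builds in much of this order. HSPA1B is of the first kind, with the combination above all others, and TCEAL9 is among those with mock above all others. A low or high reading of the 1 mock library moves every departure of that gene, and its part was not tested.

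**Figure D4:**
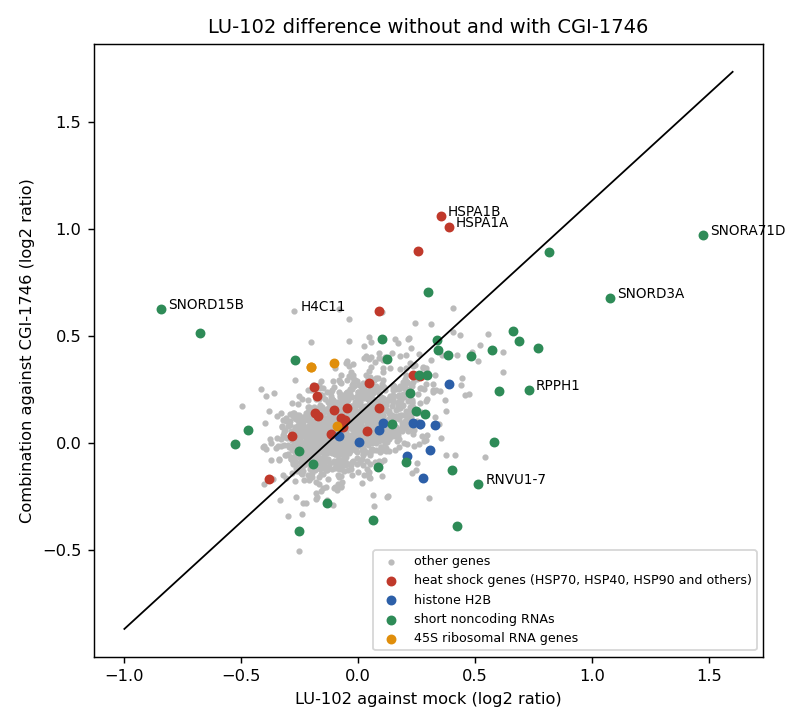
Log2 ratio of the combination to CGI-1746 (vertical axis) against the log2 ratio of LU-102 to mock (horizontal axis) for 1446 genes, with a line 0.13 above equality at the all-gene median departure. HSPA1B and HSPA1A lie above the line at 1.06 and 1.01 against 0.35 and 0.39, and SNORD3A, RPPH1 and RNVU1-7 lie below it.

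Set side by side, the LU-102 difference without and with CGI-1746 was 0.35 and 1.06 for HSPA1B and 0.09 and 0.62 for DNAJB1. For H2B genes the medians were 0.23 and 0.06, and for the 4 genes of 7SL and 7SK 0.62 and 0.44. For HSP70 genes the medians were -0.01 and 0.11, and for all genes -0.06 and 0.08. The differences without and with CGI-1746 use different libraries, 1 on each side.

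Base composition moved with the departure. Among 1396 genes other than short RNAs with a GC content, the quintile with the lowest GC content, 33.4% to 43.8%, had a median 0.06 above the all-gene median, and 74.3% of its genes lay above. The quintile with the highest GC content, 59.1% to 71.9%, had a median of -0.07, and 29.03% lay above. The order held through the quintiles between them, at 0.04, 0.01 and -0.04. Pearson's r of departure and GC content was -0.28 and Spearman's rho -0.32 across genes, which share the same 4 libraries and are not replicates. With length r was -0.02, and with level 0.07.

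The single differences and that of the combination moved with GC content too. LU-102 against mock had a median of -0.20 in the lowest quintile and 0.10 in the highest, CGI-1746 against mock -0.09 and 0.02, and the combination against mock -0.09 and 0.20. Adjusted for level, length and GC content the HSP70 median was 0.08, that of TRiC 0.07, that of respiratory chain genes 0.06 and that of oxidant defence 0.049. Proteasome activators and assembly factors, at 0.12, and variant histones, at 0.10, then stood above HSP70. The median of ATF4 and CHOP genes was -0.02 on that scale, against -0.07 without it, and that of H2A genes -0.16, against -0.10. With the same adjustment HSPA1B stood 0.60 above and H4C11 0.76 above. Whether library preparation or the treatments gave this order of base composition was not tested.

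**Figure D5:**
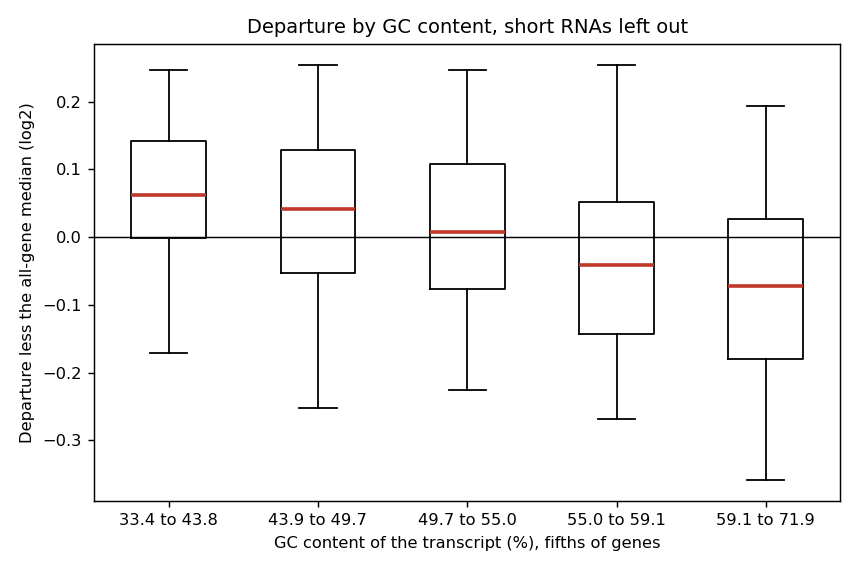
Departure less the all-gene median (log2) in quintiles of transcript GC content (%), short RNAs left out, with boxes from the 25th to the 75th percentile, whiskers to the 5th and 95th percentiles and the median in red. The median goes from 0.06 in the lowest quintile to -0.07 in the highest.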

How the data were processed

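Total RNA of 5 libraries, 1 per condition, was sequenced by a service company, per the labels' protocols. The authors deposited a table of normalized expression signal, which the file headers call least squares means, with no stated scale. The submitters' processing notes name Partek and hg38. Aligner, annotation, strand and scaling: not given in the sources used here. Levels summed to between 99255 and 126120 in the 4 libraries, and total reads are unknown. The 7 repeated level columns equalled those used, and 24 other columns were not used.

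Departures used a pseudocount of 1 and a minimum level of 5 in any of the 4 libraries. Genes were counted at 0.5 and 0.25 from the all-gene median, and library order was taken after setting each library's median difference from mock to 0. The members and lists, 44 families taken by symbol, were chosen with earlier results of these data known. The genes to be named were the 10 highest and 10 lowest coding genes, the 5 highest and 5 lowest short RNAs, a set of stress genes and, in families whose median lay 0.05 or more from the all-gene median, up to 4 members in that direction and up to 2 in the other. Of these the text gives those that carry a family, and the other genes named were chosen after their values were seen.

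Level times length of short RNAs fell on multiples of 0.5 times 1 value per library, 59.4 in mock, within 0.1 for 28 of 29 genes, which gave reads. For other genes reads are rough, since the longest transcript of GENCODE 29 stood for the unknown length. The counting error is the standard error of a departure that these reads give. RefSeq (GRCh38.p14) matched 1432 of 1446 genes, and GC content was found for 98.9%. The alternatives changed the pseudocount, the minimum level, the library scaling, the centre and the scale of the sum. The calculation was tested on simulated data. Tools were matplotlib 3.10.9, pandas 2.3.3, numpy 2.4.6 and scipy 1.17.1 under Python 3.11.15.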

Additional observations from a re-analysis of the deposited data

How the results depend on the processing

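No paired analysis was possible because each condition has 1 library, and no library can be left out of a departure. Counts of genes depend on the pseudocount and the level limit, which set how many genes are compared. At 0.5 or more above the median, the 10 genes became 4 with a pseudocount of 5, 4 with a level of 5 in all 4 libraries, 3 with a level of 20 and 20 without a limit. At 0.5 or more below it the 17 genes became 6, 8 and 38 with a pseudocount of 5, a level of 20 and no limit, 10 with single differences added on the level scale, 8 with adjustment for level, length and GC content and 9 without short RNAs. At 0.25 above, a pseudocount of 5 gave 46, a level of 20 gave 27 and no limit 191, and at 0.25 below they gave 45, 35 and 244. The adjustment kept 48 of the 76 genes above and 61 of the 103 below.

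The share of a family above the median moved in 10 recomputations and did not in 273. It counted as moved when it left the exact binomial 95% interval of the main share. That interval is wide for small families, 47.3% to 99.7% for HSP70, so the 273 say little about stability. With a level of 5 in all 4 libraries or of 20, HSP70 genes were 100% above. A level of 20 gave 60% for actin and tubulin, 81.8% for splicing factors and 80% for solute carriers, on 5, 11 and 5 genes. Without a limit TRiC was at 100%, variant histones at 100% and ribosomal proteins at 69.2%, and with a pseudocount of 5 the last 2 were at 100% and 66.7%. The median of proteasome subunits was 0.061 without a limit and that of ERK feedback 0.0496 on the level scale, both on the other side of 0. In all 14 of the 33 family medians changed sign under at least 1 alternative. A level of 20 put solute carriers at 0.12, Cajal body RNAs at 0.14 and G2 and mitosis genes at 0.27, on 5, 6 and 4 genes, and raised the medians of HSP70 and oxidant defence to 0.31 and 0.19, on 4 and 3 genes. The median of ATF4 and CHOP genes was -0.02 with the adjustment. SNORA71D was at 0.057 on the level scale, where SNORA81 had no value. H2B medians ranged from -0.30 to -0.21, and HSPA1B from 0.56 to 0.75. The cause was not tested. The adjustment of counts and single genes, and leaving out short RNAs or HSPA1A, HSPA1B and HSPA6, were chosen after seeing the data. Depth limits short RNAs of few reads, such as SNORA81 and SNORA67, whose departures are near their counting errors.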
